A study of Mus musculus with 285 samples.

Results

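The 48 genes described here are those whose name starts with Nduf among the 19962 genes of a whole-transcriptome spatial panel. Most of them encode parts of respiratory complex I, or NADH:ubiquinone oxidoreductase, of the mitochondrial inner membrane, and they were followed in neurons of 5 mouse brain regions and 5 treatments. They were taken by name alone and split by role into 7 core subunits, 30 accessory subunits, 8 assembly factors (the Ndufaf genes) and 3 others. The others are Ndufa4, which is now counted as a subunit of complex IV, its paralog Ndufa4l2, and Ndufb11b, listed by RefSeq as 1700029P11Rik.

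The mice were female C57BL/6J. Their age is 9 weeks in the series description and 10 weeks at irradiation in the methods. The labels hold 3 mice in each of 5 groups, 15 in all, which is fewer than the methods state. The head was exposed to electrons at an ultra-high dose rate (FLASH, 5600000 Gy/s) or at a conventional dose rate (CONV, 0.09 Gy/s). Each was given as 1 fraction of 10 Gy or as 3 fractions of 10 Gy set 48 h apart, and the groups are called FLASH or CONV with 1 × 10 Gy or 3 × 10 Gy. Sham-irradiated mice served as controls (CTRL). Mice were killed 24 h after the final exposure, so all values are from 1 early time point. On fixed, paraffin-embedded sections, segments positive for the neuronal nuclear protein NeuN were collected in CA1, CA3, the dentate gyrus (DG), the stratum oriens (SO) and the cortex (GeoMx digital spatial profiling). A NeuN-positive segment holds many cells, so fewer cells of a type and less RNA per cell cannot be told apart. The sections lay on 5 slides, which the labels call batches. CTRL mouse A, CTRL mouse B and CTRL mouse C were on slides 1, 2 and 4. FLASH 1 × 10 Gy mouse A was on slide 4 and mice B and C on slide 5. CONV 1 × 10 Gy mice A, B and C were on slides 4, 5 and 3. Only slide 4 held both a CTRL and a FLASH 1 × 10 Gy mouse. The libraries were also spread over 3 plates, which were not in the models. CTRL mice A and B were on plate 1 and CTRL mouse C on plate 2. The CA3 neuron libraries of FLASH 1 × 10 Gy mice A and B and CONV 1 × 10 Gy mouse A were on plate 3. The DG neuron library of FLASH 1 × 10 Gy mouse A and the libraries of CONV 1 × 10 Gy mouse C were on plate 2. No CTRL library was on plate 3. For the CA3 libraries of FLASH 1 × 10 Gy mice A and B, a difference from CTRL therefore cannot be told apart from one of plate. The part of plate in the other differences was not tested.

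Complex I takes electrons from NADH, passes them through a flavin and a chain of iron-sulfur clusters to ubiquinone, and pumps protons out of the mitochondrial matrix. Its core subunits carry this chemistry, the accessory subunits surround and stabilise them, and the assembly factors help to build the complex and then leave it. The remaining core subunits are encoded by mitochondrial DNA and do not carry an Nduf name. Neurons rely on oxidative phosphorylation for the ATP that restores ion gradients after firing.

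Of 90 neuron libraries, 87 were kept, with a median of 5357 genes above the limit of quantification, which is set in each library from the negative probes. The median number of gene counts per kept neuron library ran from 381139 in CONV 1 × 10 Gy to 996664 in FLASH 3 × 10 Gy. In the tests, 10095 genes were used, of which 44 were Nduf genes. All 11 neuron markers were above the limit in at least 50% of the neuron libraries, against 3 of 8 astrocyte, 5 of 8 oligodendrocyte, 2 of 7 endothelial, 2 of 7 interneuron and 0 of 7 microglia markers, of which 2 were above it in none. CA1, CA3, DG and the cortex each had the highest sum of their own markers, and no markers of SO were listed. Summed CA1 markers had a mean level of 859 CPM (counts scaled to a library size of 1000000) in CA1 and 806 in SO, CA3 markers 1695 in CA3 and 1180 in DG, DG markers 617 in DG, and cortex markers 497 in the cortex.

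The 4 promoters shown next are of genes whose values are described here or that carry the searched motifs, and they were chosen after the values were seen. Each covers 250 bases before to 50 after the gene start (RefSeq, GRCm38.p6, minus strand), 5′ to 3′. Capitals mark matches to the letters searched on either strand, GCGCA and GCGC with 1 base of any kind between them for NRF1, CCGGAAG for GABP, both regulators of respiratory genes, and AAGATGGC for YY1.
Ndufa8 (chr2:36049289-36049588): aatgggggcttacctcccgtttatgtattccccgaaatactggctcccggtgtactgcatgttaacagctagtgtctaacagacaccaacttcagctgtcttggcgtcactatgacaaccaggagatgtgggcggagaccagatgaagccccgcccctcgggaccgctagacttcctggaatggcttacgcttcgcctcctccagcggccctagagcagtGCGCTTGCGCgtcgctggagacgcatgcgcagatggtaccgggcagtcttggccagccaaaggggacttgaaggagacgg
Ndufb4 (chr16:37654319-37654618): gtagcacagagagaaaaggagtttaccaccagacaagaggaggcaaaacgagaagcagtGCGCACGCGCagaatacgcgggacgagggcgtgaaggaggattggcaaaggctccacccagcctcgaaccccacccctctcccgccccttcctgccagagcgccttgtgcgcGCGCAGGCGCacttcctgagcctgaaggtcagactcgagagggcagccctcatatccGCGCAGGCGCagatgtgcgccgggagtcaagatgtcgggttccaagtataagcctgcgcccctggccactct
Ndufb8 (chr19:44555393-44555692): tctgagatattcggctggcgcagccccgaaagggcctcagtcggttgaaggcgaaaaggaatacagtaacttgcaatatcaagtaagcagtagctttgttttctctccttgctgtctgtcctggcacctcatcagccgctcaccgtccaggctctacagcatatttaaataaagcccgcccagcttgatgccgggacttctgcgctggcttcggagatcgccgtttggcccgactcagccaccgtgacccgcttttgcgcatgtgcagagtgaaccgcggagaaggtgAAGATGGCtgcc
Ndufs3 (chr2:90904672-90904971): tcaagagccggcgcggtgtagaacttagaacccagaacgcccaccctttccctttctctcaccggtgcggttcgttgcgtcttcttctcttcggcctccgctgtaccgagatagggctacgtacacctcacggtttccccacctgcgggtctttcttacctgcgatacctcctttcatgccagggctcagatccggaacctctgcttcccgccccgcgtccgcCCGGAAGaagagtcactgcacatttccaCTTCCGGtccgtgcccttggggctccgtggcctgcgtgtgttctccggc

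In Ndufb4, the NRF1 letters start at 3 positions, -191, -79 and -22 from the gene start. In Ndufa8 they start at -30. The YY1 letters start at 38 in Ndufb8, and the GABP letters at -27 and 1 in Ndufs3. A promoter was found for 41 of the 48 genes. The NRF1 letters were in 9 of them (22%), against 4.78% of 27025 mouse promoters of the same length. The YY1 letters were in 8 (19.5%, against 2.88%), the GABP letters in 6 (14.6%, against 9.12%) and the cAMP response element TGACGTCA in 3 (7.32%, against 1.88%). At least 1 of these 4 motifs was in 23 promoters (56.1%), against 16.6% of all. These matches are a description of the letters, not of binding.

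Nduf genes were measured at a modest distance above background. The negative probes, which match no transcript, had a mean of 41.0 CPM over the mouse-region sums, and the 44 tested Nduf genes had a median level of 99.7 CPM, against 74.0 CPM for all genes tested. In units of the negative-probe mean, the class medians were 2.44 for core subunits, 2.53 for accessory subunits and 1.92 for assembly factors. Each gene has its own probe, so these levels order probes and not amounts of transcript. Among core subunits, Ndufs3, which sits in the matrix arm, was the highest (128 CPM, or 3.12 times the negative-probe mean) and Ndufv2, of the NADH-oxidising module, was the lowest (64.5 CPM, 1.57 times). Among accessory subunits, Ndufs5 had 190 CPM (4.63 times) and Ndufb6 had 56.9 CPM (1.39 times), and the Ndufs5 probe also matches the pseudogene Ndufs5-ps. Among assembly factors, Ndufaf1, which acts on the membrane arm, had 89.1 CPM (2.17 times) and Ndufaf6 60.4 CPM (1.47 times). Ndufa4 was the highest of all, with 196 CPM (4.77 times). The Ndufb4 probe matches 3 genes (Ndufb4, Ndufb4b and Ndufb4c), whose counts cannot be told apart.

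Detection followed the same order. In at least 50% of the neuron libraries, 35 of 48 Nduf genes were above the limit, of which 5 of 7 core subunits, 27 of 30 accessory subunits, 2 of 8 assembly factors and Ndufa4. The share of libraries above the limit ran from 27.6% to 87.4% for core subunits, from 24.1% to 98.9% for accessory subunits and from 13.8% to 80.5% for the 6 assembly factors that were tested. Only Ndufa4 was above the limit in 100% of the libraries. Genes not tested were Ndufaf2, the assembly counterpart of Ndufa12 (above the limit in 5.75% of neuron libraries), Ndufaf7, another assembly factor (2.30%), Ndufb11b (4.60%) and Ndufa4l2, known as a hypoxia-induced gene (1.15%).

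**Figure D1:**
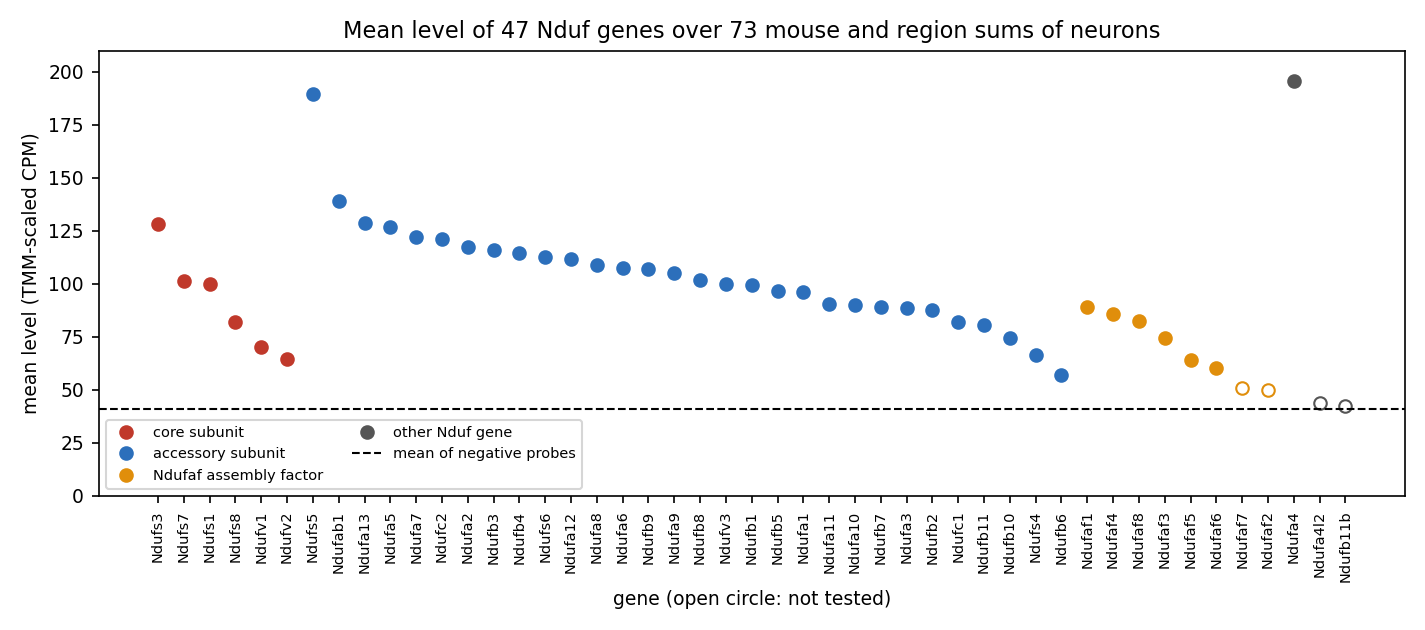
Mean level of 47 of the 48 Nduf genes in neurons (TMM-scaled CPM), by class, with the negative-probe mean as a dashed line and genes that were not tested as open circles. Ndufa4 and Ndufs5 lie farthest above the line at 4.77 and 4.63 times its value, and the assembly factors lie nearest to it as a class.

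The summed level of the accessory subunits was highest in CA3 neurons. There, 23 of 30 passed the test as higher against DG, 13 against CA1, 12 against the cortex and 10 against SO, and 7 against all 4. Of all genes, 26.8%, 11.8%, 14.4% and 9.49% were called higher in CA3 in these comparisons, and 4.72% in all 4. The sum was 3502 ± 473 CPM in CA3 (mean ± SD, n = 15 mice), 3183 ± 201 in the cortex, 3048 ± 229 in CA1, 2974 ± 210 in SO (n = 13) and 2917 ± 166 in DG. Core subunits had nearly level sums, from 643 ± 50.1 in DG to 659 ± 69.5 in CA3. Assembly factors summed to 522 ± 31 CPM in the cortex, 534 ± 50.5 in DG, 547 ± 49.8 in CA3 and 551.5 ± 43.6 in CA1, and to 643 ± 265 in SO, where 1 library stood apart, as described further on. The mean was highest in CA3 for 28 of 44 tested Nduf genes, of which 23 were accessory subunits, against 24.0% of all genes. It was lowest in DG for 19, against 33.8% of all genes.

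**Figure D2:**
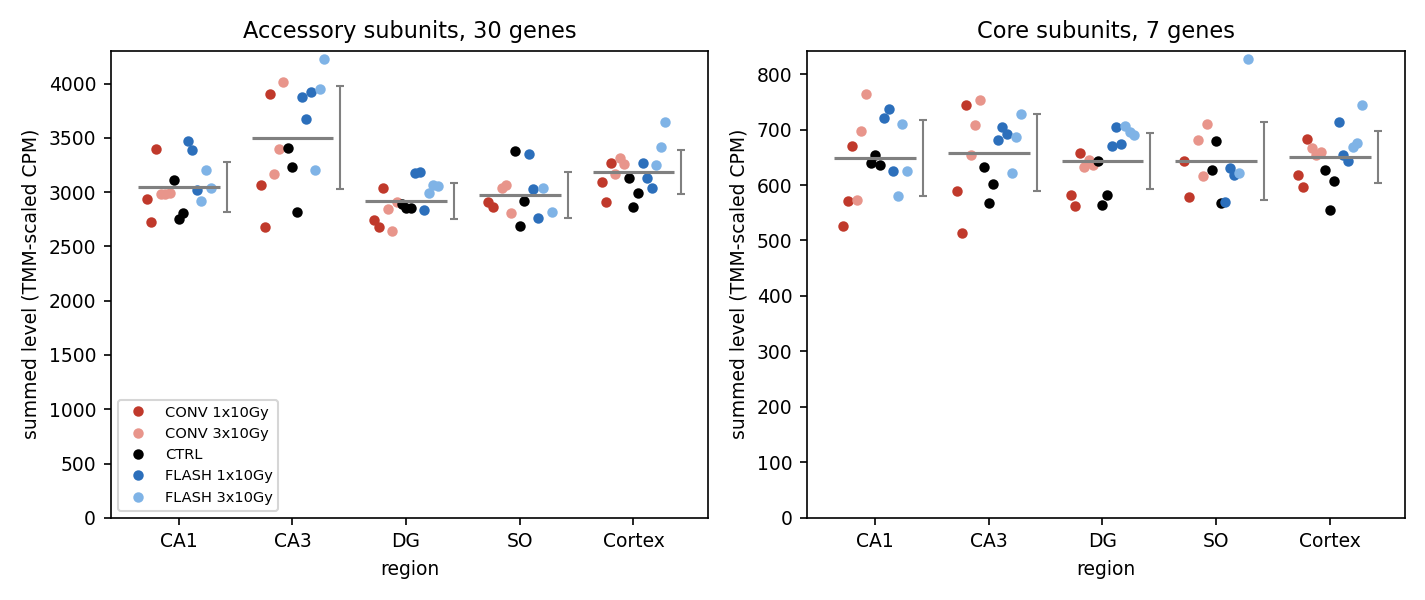
Summed level (CPM) of the 30 accessory subunits and of the 7 core subunits in each region, 1 point per mouse coloured by treatment, with bars at the mean and whiskers of 1 SD. The accessory sum is highest in CA3 (3502 CPM) and has its widest spread there (SD 473), and the core sums lie between 643 and 659 CPM in all 5 regions.

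The comparison of CA3 with DG had the most Nduf genes past the test. With each mouse as a block, 26 Nduf genes were higher and 2 lower in CA3 (edgeR quasi-likelihood test, Benjamini-Hochberg adjusted p under 0.05 over all genes), where 51.6% of all genes were called, 26.8% higher and 24.8% lower. The 26 of 44 that were higher can be read against that 26.8%. By class, 23 of 30 accessory subunits were higher in CA3 with a median log2 difference of 0.25, 1 of 7 core subunits was higher and 1 lower (median 0.07), and 1 of 6 assembly factors was higher and 1 lower (median 0.05). The median over the 44 genes was 0.21, with 40 estimates above 0, and over all genes it was 0.03.

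Ndufv3, an accessory subunit attached to the NADH-oxidising module, had 78.8 CPM in the lowest mouse, 114 in the median mouse and 188 in the highest in CA3, and 65.8, 88.2 and 102 in DG. The ranges overlapped, but within mice CA3 was higher in 14 of 15 (log2 difference 0.47, SE 0.07, edgeR adjusted p = 1.13e-08). Ndufb3, of the membrane arm, had 82.7, 141 and 181 CPM in CA3 and 59.2, 107 and 121 in DG, and was higher in 13 of 15 mice (0.45, SE 0.08, edgeR adjusted p = 1.43e-07). Ndufa13, also known as GRIM19, had 82.7, 143 and 226 CPM in CA3 and 82.0, 118 and 151 in DG (log2 difference 0.39, higher in 13 of 15 mice). The lowest mice were alike in both regions, and the median and the highest mouse were higher in CA3. Ndufb8 (0.40, 12 of 15 mice), Ndufa10 (0.37, 13 of 15) and Ndufa8 (0.37, 14 of 15) were higher as well. Ndufa2 was higher in CA3 than in DG in 15 of 15 mice (0.37).

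Against CA1, 14 Nduf genes were higher and 0 lower in CA3, where 11.8% of all genes were higher and 11% lower in CA3 (22.8% in all). These were 13 of 30 accessory subunits (median log2 difference of CA1 minus CA3 -0.21) and Ndufa4, and they included no core subunit and no assembly factor. Ndufc2, a membrane-arm subunit, had 108, 147 and 181 CPM in CA3 and 61.8, 107 and 146 in CA1 (lowest, median and highest mouse). It was lower in CA1 in 14 of 15 mice (log2 difference -0.44, SE 0.08, edgeR adjusted p = 3.20e-06). Ndufa12, of the matrix arm, was lower in CA1 in 13 of 15 mice (-0.43, SE 0.08, edgeR adjusted p = 1.17e-05), with medians of 103 CPM in CA1 and 123 in CA3. Without FLASH 1 × 10 Gy mouse C or without FLASH 3 × 10 Gy mouse B, 9 of the 14 passed.

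Against SO, 11 Nduf genes were higher and 1 lower in CA3 (19.2% of all genes called, 9.49% higher and 9.72% lower), and against the cortex 13 were higher and 0 lower (28.7% called, 14.4% and 14.3%). Ndufa2 was higher in CA3 than in SO in 11 of 13 mice (log2 difference 0.37, edgeR adjusted p = 0.000781). In all 4 comparisons, CA3 was higher for 8 genes (Ndufa1, Ndufa2, Ndufa4, Ndufa12, Ndufa13, Ndufb8, Ndufs5 and Ndufv3), against 4.72% of all genes. The 4 comparisons share the CA3 samples. In at least 1 of them CA3 was higher for 29 of 44 Nduf genes, against 34.3% of all genes.

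**Figure D3:**
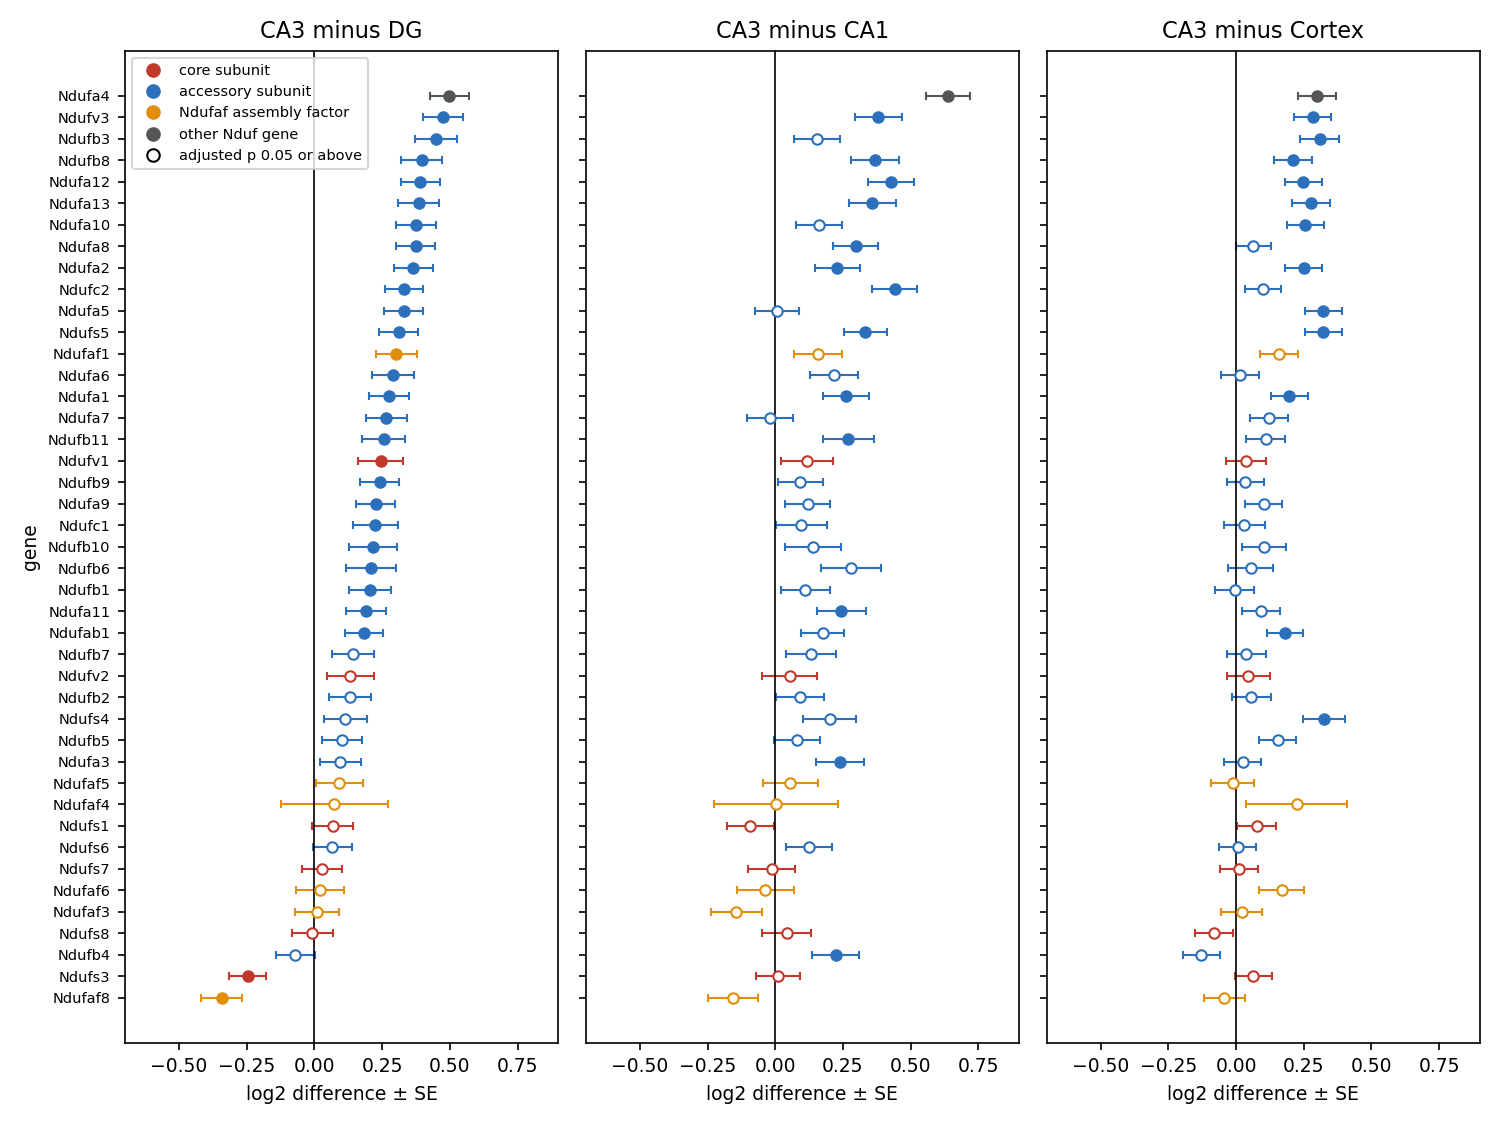
Log2 difference (CA3 minus DG, minus CA1 and minus cortex) with its standard error for 43 of the 44 tested Nduf genes, filled where the adjusted p was under 0.05. The accessory subunits and Ndufa4 lie mostly to the right of 0 in all 3 panels, and the core subunits and assembly factors lie on both sides of it.

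Ndufa4 had the largest difference in mean CPM between regions. In log2 difference, Ndufaf4 had a larger one, which rested on 1 SO library, as given further on. Ndufa4 had 118, 275 and 349 CPM in CA3 (lowest, median and highest mouse), 134, 226 and 251 in the cortex, 117, 175 and 221 in DG, 115, 162 and 247 in CA1 and 111, 134 and 237 in SO. The lowest mice lay between 111 and 134 CPM in all 5 regions, and the regions differed in the median and the highest mouse. It was lower in CA1 than in CA3 in 14 of 15 mice (log2 difference -0.64, SE 0.08, edgeR adjusted p = 1.04e-11), higher in CA3 than in SO in 11 of 13 (0.61, adjusted p = 2.29e-09) and higher in CA3 than in DG in 14 of 15 (0.50, adjusted p = 7.59e-10).

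A few genes ran the other way. The core subunit Ndufs3 was highest in DG, with 106, 147 and 182 CPM (lowest, median and highest mouse), against 70.9, 121 and 163 in CA3 and 85.9, 124 and 160 in the cortex. It was lower in CA3 than in DG in 11 of 15 mice (log2 difference -0.25, SE 0.07, edgeR adjusted p = 0.00149) and higher in DG than in the cortex in 13 of 15 (0.31, SE 0.07, adjusted p = 1.91e-05). With the background share of each library as a covariate, the CA3 against DG estimate was -0.03 (adjusted p = 0.860) and the DG against cortex estimate 0.15 (adjusted p = 0.206). Ndufaf8, the partner of the assembly factor Ndufaf5, had 55.8, 73.5 and 90.6 CPM in CA3 and 78.7, 89.95 and 126 in DG, and was lower in CA3 in 12 of 15 mice (-0.34, SE 0.08, edgeR adjusted p = 5.99e-05). With that covariate its estimate was -0.30 (adjusted p = 0.0516). Ndufaf1 ran with the accessory subunits, at 80.8, 98.0 and 123 CPM in CA3 and 56.2, 79.3 and 103 in DG, and was higher in CA3 in 15 of 15 mice (0.30, SE 0.08, edgeR adjusted p = 0.000363). The core subunit Ndufv1, which binds NADH and the flavin, had 59.2, 74.8 and 97.6 CPM in CA3 and 36.8, 64.0 and 80.3 in DG (0.24, SE 0.08, edgeR adjusted p = 0.00859). After subtraction of the negative-probe mean, that difference was 0.44 and did not pass (adjusted p = 0.178).

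The assembly factor Ndufaf4, which acts early in building the ubiquinone-binding part, was set in SO by 1 library. The SO library of CONV 1 × 10 Gy mouse A held 203 Ndufaf4 counts of 303723 gene counts, and the other 12 SO libraries held 5 to 57. With that mouse, Ndufaf4 was lower in CA3 than in SO (log2 difference -0.71, edgeR adjusted p = 0.0173) and in DG than in SO (-0.78, adjusted p = 0.00578). Without it, the differences were -0.14 (adjusted p = 0.390) and -0.19 (adjusted p = 0.195). The difference between SO and the cortex was 0.93 (adjusted p = 0.000736) with that mouse and 0.36 (adjusted p = 0.00331) without it.

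The 6 region pairs without CA3 held 0 to 14 called Nduf genes. From DG to the cortex, 3 were higher and 11 lower in DG (47.4% of all genes called, 23.1% and 24.2%), and from CA1 to the cortex 1 was higher and 4 lower in CA1 (20.8% called, 9.34% and 11.5%). From CA1 to DG, 3 were higher and 2 lower in CA1 (32.4% called, 15.9% and 16.5%). Ndufa5, of the matrix arm, was among those higher in CA1 than in DG (log2 difference 0.32) and was the only one higher in CA1 than in the cortex (0.31). From DG to SO, 0 were higher and 2 lower in DG (24.7% called, 13% and 11.7%), of which 1 was Ndufaf4. From SO to the cortex, 2 were higher and 2 lower in SO (18.1% called, 8.91% and 9.16%), and the second gene higher in SO was Ndufaf6 (0.34, SE 0.11, adjusted p = 0.0146), which did not pass without CTRL mouse B (adjusted p = 0.0604) or without FLASH 1 × 10 Gy mouse B (adjusted p = 0.110). CA1 and SO, which lie next to each other, held 0 called Nduf genes by edgeR and 0 by DESeq2 (0.00991% of all genes), with 4 of 44 at an unadjusted p under 0.05. Across the 10 pairs, 34 of the 44 genes were called at least once and 10 were not.

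The CA3 difference was seen mouse by mouse. The median log2 difference between CA3 and DG over the 44 genes ran from -0.07 to 0.36, with a middle value of 0.21, and was above 0 in 14 of 15 mice, the exception being a CONV 1 × 10 Gy mouse. Against CA1 it ran from 0.00 to 0.46 and was above 0 in 15 of 15 mice, and against the cortex from -0.10 to 0.29, above 0 in 11 of 15. The same medians over all genes lay between -0.03 and 0.03. By treatment, the middle values for CA3 minus DG were 0.12 in CTRL, 0.22 in FLASH 1 × 10 Gy, 0.17 in CONV 1 × 10 Gy, 0.23 in FLASH 3 × 10 Gy and 0.29 in CONV 3 × 10 Gy, from 3 mice each. In the 3 CTRL mice alone, 1 Nduf gene, Ndufb8, passed between CA3 and DG (log2 difference 0.62, edgeR adjusted p = 0.00192) and 0 in the other region pairs where any had passed.

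Other measures moved with the regions. The background share, the mean negative-probe count as a percentage of the mean gene count, was 62.3% on average in CA3 and 48.1% in DG, and between 58.8% and 59.1% in CA1, SO and the cortex. Subtracting the negative-probe mean from each library raised the median CA3 minus DG difference of the Nduf genes to 0.43, and with the background share as a covariate 17 were higher and 0 lower in CA3 than in DG. The share of all genes called with that covariate is not given here. Summed neuron markers were 6178 ± 1936 CPM in CA3, 4426 ± 777 in the cortex, 3341 ± 733 in SO, 3309 ± 524 in CA1 and 3244 ± 515 in DG. Summed oligodendrocyte markers were 1085 ± 150 CPM in CA3 and 965 ± 272 in the cortex, and between 641 and 676 in the other regions. Of 11 neuron markers, 8 were higher and 2 lower in CA3 than in DG (median log2 difference 1.00). Of 8 oligodendrocyte markers, 7 were higher in CA3 (0.72). Of all genes, 26.8% were higher and 24.8% lower in CA3 than in DG. Background share was fitted as a covariate, as given here. The part of the other measures in the Nduf differences was not tested.

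Some genes of each of the other respiratory complexes were also higher in CA3 than in DG, where 26.8% of all genes were higher and 24.8% lower. Of those tested, 2 of 4 were higher for complex II (median log2 difference 0.24), 7 of 9 for complex III (0.26), 7 of 11 for complex IV (0.37) and 13 of 18 for complex V (0.31), and 3 of complex V were lower. Against CA1, 1, 4, 9 and 15 of them were higher in CA3, where 11.8% of all genes were higher and 11% lower. Complex I assembly factors without an Nduf name did not share this, with 0 of 8 higher and 2 lower in CA3 than in DG. The latter were Ecsit (-0.43, edgeR adjusted p = 8.47e-06), which works with Ndufaf1, and Lyrm2 (-0.27, adjusted p = 0.00277). Of 11 regulators of respiratory genes, 2 were higher and 1 lower in CA3, and of 13 general markers of the mitochondrial membranes and matrix, 3 were higher and 3 lower.

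In hippocampal neurons (CA1, CA3, DG and SO summed in each mouse), 6 Nduf genes were higher after FLASH 1 × 10 Gy than in CTRL with slide in the model, and 0 were lower. This comparison asks what a single FLASH fraction does to the neuronal transcriptome at 24 h. Of all genes, 11.5% were called, 6.62% higher and 4.87% lower, so that 6 of 44 can be read against 6.62%. The genes that rose were Ndufa4 (log2 difference 0.76, SE 0.19, edgeR adjusted p = 0.00972), Ndufa13 (0.72, SE 0.18, adjusted p = 0.0113), Ndufs5 (0.59, SE 0.19, adjusted p = 0.0365), Ndufb7 (0.54, SE 0.16, adjusted p = 0.0261), Ndufa12 (0.53, SE 0.16, adjusted p = 0.0263) and Ndufc2 (0.51, SE 0.17, adjusted p = 0.0401). The estimate was above 0 for 38 of 44 genes, with medians of 0.16 for core subunits, 0.24 for accessory subunits and -0.06 for assembly factors, against 0.00 over all genes. No core subunit and no assembly factor passed.

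Measured levels after FLASH 1 × 10 Gy lay close together, and those of CTRL were spread. Ndufa13 had 154, 155 and 136 CPM in FLASH 1 × 10 Gy mice A, B and C and 132, 114 and 96.5 in the CTRL mice, so the groups did not overlap. Ndufb7, of the membrane arm, had 93.7, 106 and 99.8 CPM after FLASH 1 × 10 Gy and 87.7, 81.2 and 68.8 in CTRL, also without overlap. Ndufa12 had 126, 121 and 121 CPM against 109, 105 and 82.4. Every FLASH 1 × 10 Gy mouse was above every CTRL mouse for these 3 genes. Ndufa4 had 240, 235 and 202 CPM against 243, 194 and 152 in CTRL, where CTRL mouse A was at the level of the FLASH mice. Ndufs5 had 197, 203 and 214 CPM against 213, 162 and 145, and Ndufc2 had 122, 137 and 130 against 126, 112 and 90.7, again with CTRL mouse A among the FLASH mice. Over the 44 genes, 7 lay wholly above CTRL and 2 wholly below, against 8.92% and 7.84% of all genes.

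**Figure D4:**
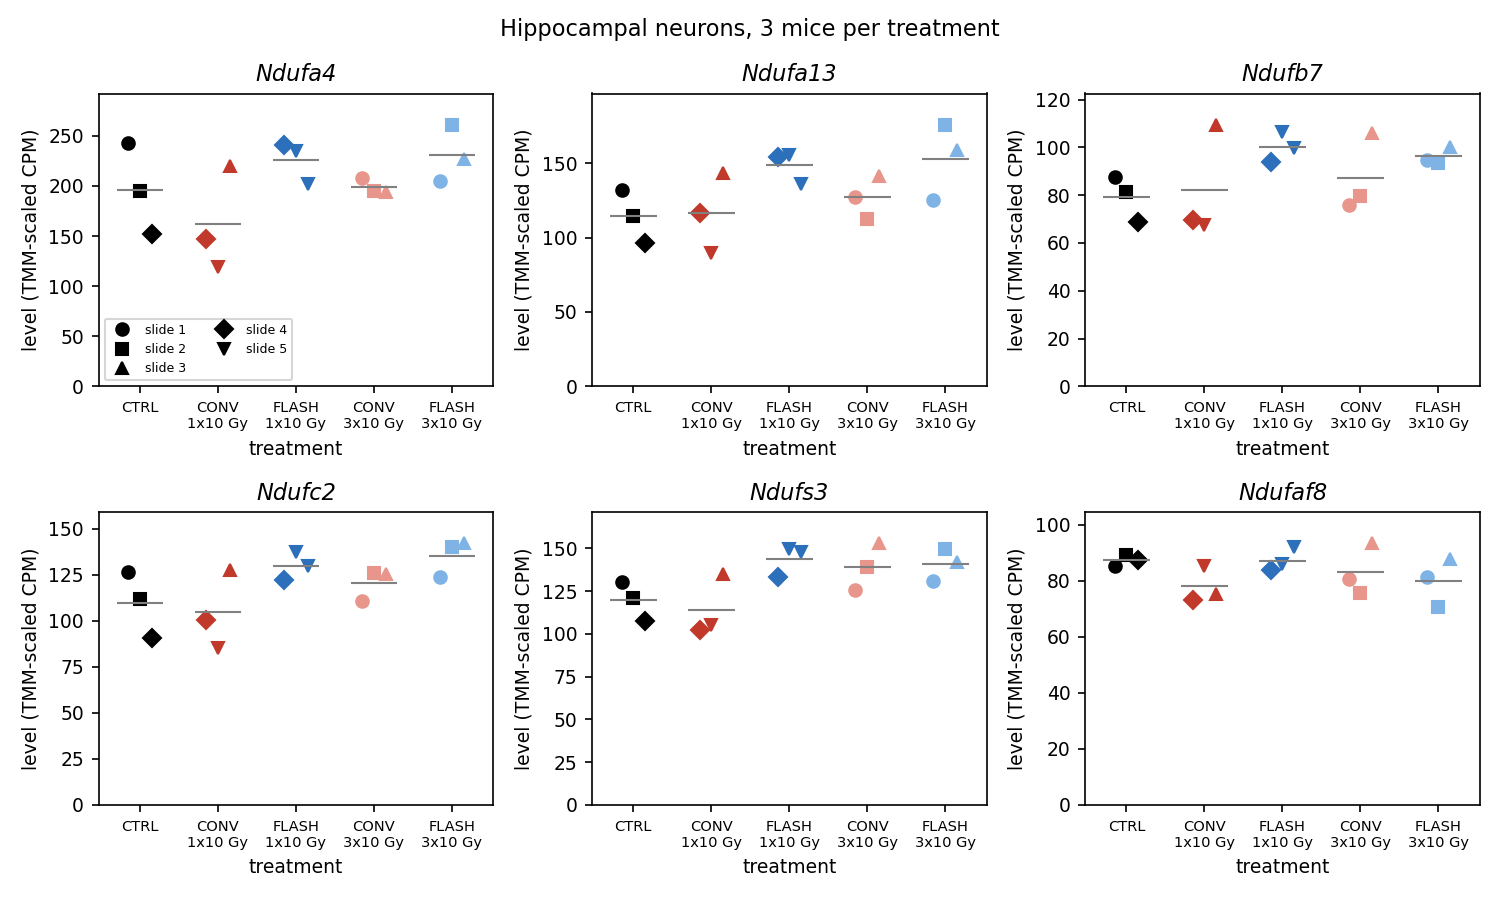
Level (CPM) in hippocampal neurons of each mouse for Ndufa4, Ndufa13, Ndufb7, Ndufc2, Ndufs3 and Ndufaf8 by treatment, with the marker showing the slide and the line the mean of 3 mice. For Ndufa13 and Ndufb7 all 3 FLASH 1 × 10 Gy mice lie above the 3 CTRL mice, and for Ndufa4 CTRL mouse A (243 CPM) lies at the top of the FLASH 1 × 10 Gy mice.

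These calls depended on how slide was modelled and on a few of the mice. The shares of all genes called in these other fits are not given here. With treatment alone in the model, 0 Nduf genes passed, and the estimates were 0.20 for Ndufa4 (edgeR adjusted p = 0.733) and 0.37 for Ndufa13 (adjusted p = 0.701). With slide as a random block 0 passed as well, with background share as a covariate 0, with DESeq2 2, and with a mixed model on single libraries, as the study describes, 2. That mixed model has no term for the mouse, so libraries of the same mouse count as independent. Without CTRL mouse C, without FLASH 1 × 10 Gy mouse A or without CONV 1 × 10 Gy mouse B, 0 passed, and without CONV 1 × 10 Gy mouse C 2 did. On slide 4, FLASH 1 × 10 Gy mouse A was above CTRL mouse C by 0.66 for Ndufa4, 0.68 for Ndufa13, 0.61 for Ndufa12 and 0.44 for Ndufb7 on the log2 scale. Of the 37 core and accessory subunits, 33 were higher in that mouse (median 0.18). This is 1 mouse against 1.

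Between FLASH and CONV at 1 × 10 Gy, 15 Nduf genes were higher after FLASH and 0 lower in hippocampal neurons (22% of all genes called, 11.6% higher and 10.4% lower). They comprised 12 of 30 accessory subunits (median log2 difference 0.23), the core subunits Ndufs3 and Ndufs8, and Ndufa4, while 0 of 6 assembly factors passed (median -0.12). The largest were Ndufa4 (0.79, SE 0.15, edgeR adjusted p = 0.000596), Ndufa13 (0.59, SE 0.14, adjusted p = 0.00354), Ndufb7 (0.52, SE 0.12, adjusted p = 0.00354), Ndufc2 (0.50, SE 0.13, adjusted p = 0.00545) and Ndufs5 (0.47, SE 0.15, adjusted p = 0.0231). Ndufs3 (0.44, SE 0.13, adjusted p = 0.0116) and Ndufs8 (0.39, SE 0.14, adjusted p = 0.0416), a carrier of iron-sulfur clusters, are named as the 2 core subunits that passed, chosen after the values were seen. The remaining 8 (Ndufa2, Ndufa3, Ndufa6, Ndufa10, Ndufa12, Ndufb5, Ndufb9 and Ndufs6) had estimates of 0.34 to 0.44.

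CONV 1 × 10 Gy mice A and B were low and mouse C was high. Ndufa4 had 147, 119 and 220 CPM in CONV 1 × 10 Gy mice A, B and C, Ndufa13 117, 89.3 and 143, and Ndufs3 102, 105 and 135. For Ndufs5 (170, 131 and 255 CPM) and Ndufb7 (69.7, 67.6 and 109 CPM), mouse C was above all 3 FLASH 1 × 10 Gy mice. That mouse was on slide 3, which held no other mouse of these 2 groups. Over the 44 genes, 7 had all FLASH mice above all CONV mice and 2 below, against 6.37% and 5.07% of all genes. On slides 4 and 5, which held both groups, all 15 genes were higher after FLASH, Ndufa4 by 0.71 and 0.87, Ndufa13 by 0.40 and 0.70 and Ndufb7 by 0.43 and 0.61 on the log2 scale. Without the slide term, with slide as a random block or with background share as a covariate 0 Nduf genes passed, with DESeq2 5 and with the study's mixed model 3. Without CONV 1 × 10 Gy mouse B 0 passed, and without CONV 1 × 10 Gy mouse A or any of the FLASH 1 × 10 Gy mice 8 or 9 did.

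Neuron markers and background share moved with these groups. Summed neuron markers in hippocampal neurons were 4745, 4753 and 4716 CPM in FLASH 1 × 10 Gy mice A, B and C, 4821, 3656 and 2597 in CTRL, and 2910, 2460 and 5227 in CONV 1 × 10 Gy. The mice in which Nduf genes were low, CTRL mouse C and CONV 1 × 10 Gy mice A and B, had the lowest neuron markers of these 9 mice. Of 11 neuron markers, 8 rose between CTRL and FLASH 1 × 10 Gy (median log2 difference 0.99) and 10 between CONV and FLASH (0.83). Of all genes, 6.62% and 11.6% were called higher in these 2 comparisons. The background share averaged 50.9% (49.96% to 52.8%) after FLASH 1 × 10 Gy, 60.4% (54.1% to 67.8%) in CTRL and 56.1% (43.9% to 62.7%) in CONV 1 × 10 Gy. Astrocyte markers rose for 1 of 7 between CTRL and FLASH 1 × 10 Gy, microglia markers for 0 of 2 and oligodendrocyte markers for 0 of 8. Endothelial markers fell for 1 of 5, where 4.87% of all genes were called lower. Counts were summed unscaled, so a region with more counts weighed more. CA3 gave 854075 of 2997227, 1228004 of 3578939 and 1187547 of 3524084 hippocampal counts in FLASH 1 × 10 Gy mice A, B and C. In CTRL mice A, B and C it gave 1651691 of 4093275, 1250983 of 3366421 and 354041 of 2167962. In CONV 1 × 10 Gy it gave 356519 of 1566151, 284108 of 2907206 and 431917 of 1189032. Background share was fitted as a covariate, as given above. The part of the other measures in the Nduf differences was not tested.

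The summed level of the 37 subunits was 3812, 3566 and 3462 CPM in CTRL mice A, B and C, 4039, 4003 and 3832 in the FLASH 1 × 10 Gy mice, 3454, 3301 and 4005 in the CONV 1 × 10 Gy mice, 3674, 4111 and 4107 with 3 FLASH fractions and 3664, 3824 and 3832 with 3 CONV fractions. All 3 FLASH 1 × 10 Gy mice were above the CTRL mice. Summed assembly factors lay between 522 and 596 CPM in CTRL and between 507 and 526 after FLASH 1 × 10 Gy, and these 2 ranges overlapped.

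Complexes IV and V had larger median differences than complex I in the same comparison, with no test of the difference between lists. The lists were not matched for level above background. After FLASH 1 × 10 Gy against CTRL, 10 of 11 complex IV genes (median log2 difference 0.86) and 16 of 18 complex V genes (0.66) rose. For complex III 2 of 9 rose (0.38) and for complex II 0 of 4 (0.26). Of all genes, 6.62% were called higher in this comparison. Of the other complex I assembly factors 0 of 8 passed (0.13) and of the regulators of respiratory genes 0 of 11 (-0.02). General mitochondrial markers rose for 3 of 13 (0.20). Between FLASH and CONV at 1 × 10 Gy, the counts were 10 of 11 for complex IV (0.67), 16 of 18 for complex V (0.57), 3 of 9 for complex III (0.25) and 1 of 4 for complex II (0.25). Of all genes, 11.6% were called higher there. The 2 comparisons share the FLASH 1 × 10 Gy mice.

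**Figure D5:**
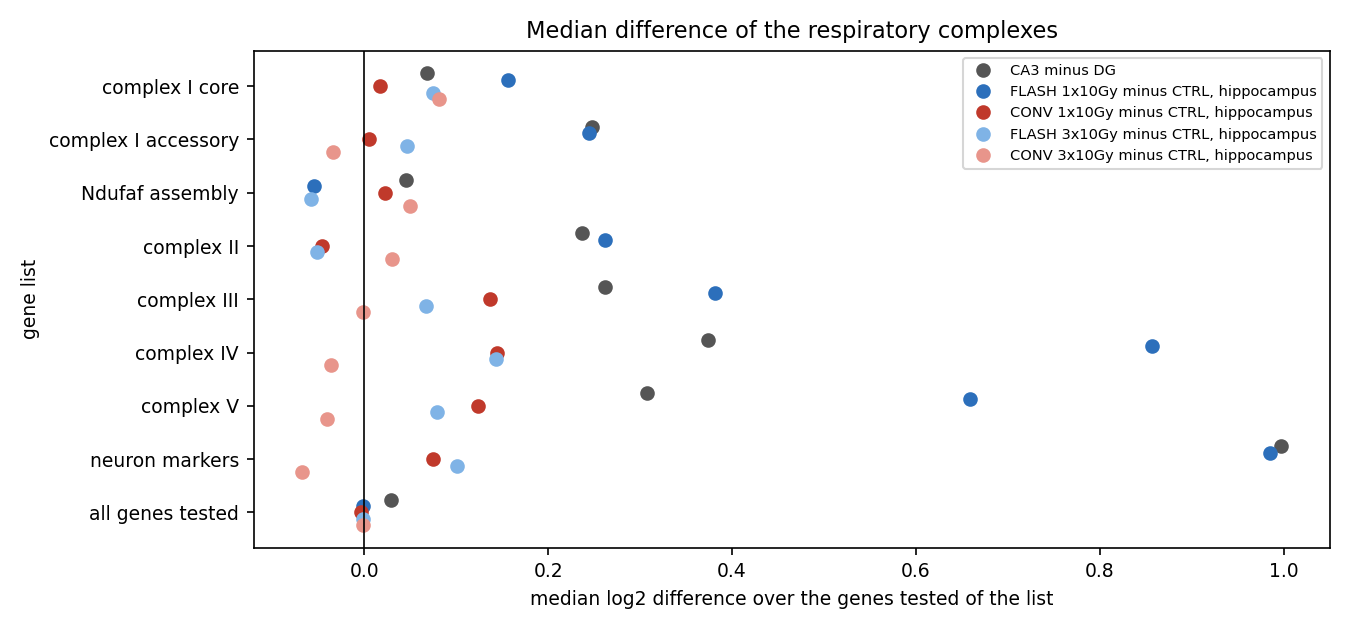
Median log2 difference of complex I core subunits, accessory subunits and assembly factors, of complexes II to V, of neuron markers and of all genes tested, for CA3 minus DG and for 4 treatment comparisons in hippocampal neurons. In the FLASH 1 × 10 Gy against CTRL comparison the neuron markers (0.99) and complex IV (0.86) lie highest, accessory subunits at 0.24 and assembly factors at -0.06.

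Among subregions, calls were made in CA3 and DG. In CA3, Ndufa4 had 344, 294 and 288 CPM in FLASH 1 × 10 Gy mice A, B and C, 271, 267 and 136 in CTRL and 185, 117 and 281 in CONV 1 × 10 Gy. The FLASH mice were above all mice of both other groups. The log2 difference was 1.22 against CTRL (SE 0.28, edgeR adjusted p = 0.00258) and 1.16 against CONV (SE 0.23, adjusted p = 1.00e-04). Ndufa13 had 175, 174 and 189 CPM after FLASH 1 × 10 Gy, 124, 141 and 81.7 in CTRL and 122, 102 and 172 after CONV, again without overlap (0.92 against CTRL, SE 0.29, adjusted p = 0.0495). These 2 genes were the calls against CTRL in CA3 (3.45% of all genes called, 2.97% higher). Against CONV, 5 genes were higher and 0 lower (8.5% of all genes called, 6.33% higher), namely Ndufa4, Ndufa10 (0.90, SE 0.26, adjusted p = 0.0122), Ndufa11 (0.87, SE 0.27, adjusted p = 0.0258), Ndufa12 (0.82, SE 0.24, adjusted p = 0.0149) and Ndufa13 (0.75, SE 0.24, adjusted p = 0.0264). For both comparisons 0 passed without the slide term or without CONV 1 × 10 Gy mouse B, and for that against CTRL also 0 without CTRL mouse C or FLASH 1 × 10 Gy mouse A. The summed neuron markers of CA3 averaged 7312 CPM after FLASH 1 × 10 Gy, 4864 in CTRL and 4835 after CONV 1 × 10 Gy, and their part in these differences was not tested. The other 4 comparisons in CA3 had 0 calls by edgeR and by DESeq2 (0.0198% of all genes for FLASH against CONV at 3 × 10 Gy and 0% for the rest), with 0 to 6 of 44 at an unadjusted p under 0.05. Ndufa13 had the smallest p there, for FLASH 3 × 10 Gy against CTRL (0.45, SE 0.17, adjusted p = 0.907).

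In DG, FLASH and CONV at 1 × 10 Gy differed for 3 genes, all higher after FLASH (8.48% of all genes called, 3.71% higher). Ndufs3 had 150, 176 and 163 CPM in FLASH 1 × 10 Gy mice A, B and C and 107, 120 and 136 after CONV, without overlap (log2 difference 0.48, SE 0.16, edgeR adjusted p = 0.0455). Ndufc2 had 105, 135 and 123 CPM against 80.1, 78.5 and 105 (0.57, SE 0.17, adjusted p = 0.0233), and Ndufa4 212, 215 and 170 against 143, 119 and 196 (0.56, SE 0.17, adjusted p = 0.0218). CONV 1 × 10 Gy mouse C was again the highest of its group. Without the slide term 0 of the 3 passed, and without CONV 1 × 10 Gy mouse B or FLASH 1 × 10 Gy mouse B 0 passed. Against CTRL, 0 Nduf genes passed in DG (5.54% of all genes called), with 4 at an unadjusted p under 0.05, and Ndufa4 had an estimate of 0.55 (edgeR adjusted p = 0.0869). The remaining 4 comparisons in DG had 0 calls by edgeR and by DESeq2 (0% to 0.00991% of all genes), with 1 to 4 at an unadjusted p under 0.05.

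In CA1, in SO and in the cortex, 0 Nduf genes passed in any of the 6 treatment comparisons by edgeR or by DESeq2. Of all genes, 0.198% and 0.00991% were called in CA1 for FLASH with 1 and 3 fractions against CTRL, 0.0495% and 0% for CONV with 1 and 3 fractions, and 1.08% and 0.00991% between FLASH and CONV with 1 and 3 fractions. In SO the same 6 shares were 0.178%, 0.0892%, 0.0495%, 0.178%, 1.17% and 0%, and in the cortex 0.00991%, 0.00991%, 0%, 0%, 0.0594% and 0%. At an unadjusted p under 0.05 there were 0 to 5 of the 44 genes in CA1, 0 to 4 in SO and 0 to 3 in the cortex. Ndufa4 in the cortex had 228, 230 and 208 CPM in FLASH 1 × 10 Gy mice A, B and C and 250, 179 and 138 in CTRL, and the groups overlapped (log2 difference 0.76, SE 0.26, edgeR adjusted p = 0.206). Ndufa7 in SO had the lowest p there, with an estimate of -0.97 for CONV 3 × 10 Gy against CTRL (SE 0.26, adjusted p = 0.107) and overlapping groups. In CA1, Ndufv2 had an estimate of -1.05 for FLASH 1 × 10 Gy against CTRL (SE 0.46, adjusted p = 0.332).

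After 3 fractions and after CONV 1 × 10 Gy, 0 Nduf genes passed against CTRL in hippocampal neurons by edgeR, DESeq2 or the mixed model. Of all genes, 0.00991% were called for FLASH 3 × 10 Gy and 0% for each of the CONV groups. At an unadjusted p under 0.05 there were 3, 0 and 1 of the 44 genes. The smallest p belonged to Ndufa5 for FLASH 3 × 10 Gy, with 119, 152 and 160 CPM in mice A, B and C and 131, 108 and 95.9 in CTRL (log2 difference 0.26, edgeR adjusted p = 0.989). It belonged to Ndufv1 for CONV 3 × 10 Gy, with 85.3, 67.0 and 74.0 CPM against 70.5, 57.5 and 57.3 (0.34, adjusted p = 0.999). For CONV 1 × 10 Gy it was Ndufaf8, with 73.3, 85.4 and 75.4 CPM against 85.3, 89.1 and 87.5 (-0.29, adjusted p = 0.999). In each of these the groups overlapped. FLASH and CONV at 3 × 10 Gy differed for 0 Nduf genes (0% of all genes, 0 of 44 at an unadjusted p under 0.05), with Ndufa13 at 125, 176 and 159 CPM after FLASH and 127, 112 and 141 after CONV (0.25, adjusted p = 0.647). The comparisons with CTRL share the same 3 CTRL mice.

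Whether the hippocampus and the cortex differed in their response was tested directly. The interaction passed for 0 of 44 Nduf genes and for 0% of all genes in each of the 4 comparisons with CTRL by edgeR, with 0 to 2 Nduf genes at an unadjusted p under 0.05. For FLASH 1 × 10 Gy the smallest p belonged to Ndufb7, whose log2 difference was larger by 0.33 in the hippocampus (SE 0.18, edgeR adjusted p = 1.00). Calls in the hippocampus and none in the cortex therefore do not show that the response of Nduf genes differed between them.

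Across the 15 mice, Nduf genes moved together less tightly than genes of complexes IV and V. The median pairwise correlation in hippocampal neurons was 0.26 among accessory subunits, 0.20 among core subunits and -0.11 among assembly factors, against 0.41 in complex III, 0.90 in complex IV, 0.84 in complex V and 0.00 among all genes. The summed subunits had a correlation of -0.70 with the background share, the summed assembly factors one of 0.61, and the 48 genes together one of 0.92 with the summed neuron markers. These values are a description over mice that share treatments, slides and background share. The lists were not matched for level above background. Cortical sums averaged 2348 CPM for 15 complex IV genes and 3173 for 18 complex V genes, against 3183 for the 30 accessory subunits. The part of level in the correlations was not tested. In the cortex, the medians were 0.16 among accessory subunits, 0.63 in complex IV and 0.65 in complex V. The summed subunits there had a correlation of -0.34 with the background share, the summed assembly factors one of 0.55, and the 48 genes one of 0.77 with the summed neuron markers.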

How the data were processed

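The authors counted GeoMx barcodes per probe after removing duplicate reads, and the deposited values are raw counts of 19965 gene probes and 209 negative probes in 285 libraries. The submitters' processing notes name R 4.4.0 and edgeR. A single probe without a listed target (0.00869% of counts) and the negative probes (0.899%) were kept out of the library sizes. Libraries had to meet the read and signal limits that the study gives, namely 1000 raw reads, shares of 80% after trimming, 80% after stitching and 75% after alignment, a sequencing saturation of 50%, and 1 for the geometric mean of negative probes. Another was that 5% of genes exceed the quantification limit, which is that geometric mean multiplied by the squared geometric SD, and 2 where this is lower. The study also sets minimums for nuclei and segment area, which were not applied here. Of 90 neuron libraries, 3 were left out, namely the SO libraries of FLASH 3 × 10 Gy mouse B (61.0% aligned) and CONV 1 × 10 Gy mouse C (4.63% of genes detected) and, for CONV 3 × 10 Gy mouse B, a library of the cortex (321 gene counts). No 2 neuron libraries correlated above 0.942, so none was taken as a repeat.

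Counts were summed per mouse over the hippocampal regions or the cortical libraries. Genes that exceeded the limit in 5% or more of kept libraries were tested with edgeR 4.0.16 (quasi-likelihood, robust, TMM scaling, two-sided) in R 4.3.3, with treatment and slide in the treatment fits and region and mouse in the region fits, and Benjamini-Hochberg adjustment over all genes at 0.05. Levels are CPM, TMM-scaled. Log2 differences are fitted estimates with the slide or the mouse in the model, so they can differ from the ratio of the group means. Limits of counting error were not set on single values, and the number of mice limits the precision. Alternatives used limma 3.58.1 with voom, DESeq2 1.42.0, and lmerTest 3.1.3 for the mixed model that the study describes. The fits were also run on simulated data with known changes. These counts were drawn from each gene's overall mean and dispersion and the real library sizes, without slide, mouse, region or background effects. The recovered shares may therefore differ from those in the real data. For FLASH 1 × 10 Gy against CTRL in the hippocampus, 2% of 1.25-fold, 40% of 1.5-fold and 96% of 2-fold changes were recovered. Between CA3 and DG these shares were 60%, 96% and 100%. Same-numbered libraries of different regions came from the same mouse, and their deviations from the region means had a median correlation of 0.151 over 142 pairs, against -0.0125 for different mice.

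The genes and the gene lists (complexes II to V, other complex I assembly factors, regulators, mitochondrial and cell type markers) were chosen with earlier results of these data known. Values are printed for the highest and lowest gene of each class by level, for the called genes with the largest differences (up to 5 per class and comparison, up to 10 accessory subunits between regions), for the gene with the smallest p where none was called, for the other lists up to 3 genes each, and otherwise as stated beside the gene. Ndufs3, Ndufc2 and Ndufaf8 in the plot by mouse and the genes of each treatment comparison beyond the 5 largest were chosen after their values were seen. A gene that is counted in these totals is not reported here by itself.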

Additional observations from a re-analysis of the deposited data

How the results depend on the processing

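Of 50 comparisons, 14 had any called Nduf gene, and counts of 0 say little about stability. The shares of all genes called under the other settings are not given here. Whether a change in count is particular to Nduf genes therefore cannot be told. Among the region pairs with calls, 67 counts with another setting stayed within 1.5 times and 14 did not, and with a mouse left out 132 did and 3 did not. Among the treatment comparisons with calls, 19 stayed and 28 did not with another setting, and 49 and 26 with a mouse left out. In the 3 CTRL mice alone 1 gene passed between CA3 and DG and 0 in CA1 against CA3, DG or the cortex, CA3 against SO or the cortex, DG against SO or the cortex, and SO against the cortex. This setting has 3 mice. Ndufaf4 then changed sign, to 0.10 between CA3 and SO and 0.18 between DG and SO. The estimates of Ndufaf4 against SO rest on 1 library, as described above. With the background share as a covariate, 17 genes passed between CA3 and DG and 5 between DG and SO. Testing only genes detected in 50% or more of neuron libraries gave 8 calls between CA1 and the cortex, and upper quartile scaling gave 8 there and 7 between SO and the cortex. Without a replicate block, with treatment and slide in place of the mouse, 27 passed between CA3 and DG and 14 between CA1 and CA3, and no region pair moved past 1.5 times.

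The treatment calls depended on the model. For FLASH 1 × 10 Gy against CTRL and for FLASH against CONV at 1 × 10 Gy in the hippocampus and in CA3, and for the latter in DG, 0 passed without the slide term, 0 with slide as a random block and 0 with the background share as a covariate. With DESeq2, FLASH 1 × 10 Gy against CTRL had 2 calls in the hippocampus and 1 in CA3, and FLASH against CONV 5 in the hippocampus and 0 in DG. The mixed model gave 2 and 3 in the hippocampus. The stricter gene filter gave 1 call each for FLASH 1 × 10 Gy against CTRL in CA3 and in DG, 1 for FLASH against CONV in SO and 7 in the hippocampus. Upper quartile scaling gave 9 for FLASH against CONV in CA3 and 9 in the hippocampus. After background subtraction that comparison had 0 in DG and 7 in the hippocampus, and with no gene filter 11 in CA3. The causes were not tested.

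With each mouse left out in turn, FLASH 1 × 10 Gy against CTRL had 0 to 9 calls in the hippocampus, 0 to 4 in CA3, 0 to 2 in the cortex (2 without CTRL mouse A) and 0 to 1 in SO. FLASH against CONV at 1 × 10 Gy had 0 to 16 in the hippocampus, 0 to 10 in CA3, 0 to 4 in DG and 0 to 1 in SO, and CONV 1 × 10 Gy against CTRL had 0 to 1 in SO. Between CA1 and CA3 the count ran from 9 to 15, between DG and SO from 1 to 3 (1 without CONV 1 × 10 Gy mouse A) and between CA3 and DG from 25 to 28. SO without CTRL mouse C could not be fitted, since slide and treatment were then not separable. The SO comparisons rest on 2 or 3 mice a group. Levels near the negative-probe mean, as for most assembly factors, compress log2 differences.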
